A study of Bos taurus with 8 samples.

Results

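CCL20, a chemokine gene, was followed through bovine peripheral blood mononuclear cells (PBMCs) exposed to lipopolysaccharide (LPS), by time and by cell class. It was 1 of the 21861 genes counted in the 4 single-cell RNA-seq (scRNA-seq) libraries and was found by its name, which occurred in 1 row, with the identifier ENSBTAG00000021326. CCL20 was chosen by its measured ratio of 2 h LPS to no LPS, the largest of all genes, so its levels by time and by class are given as a description, without any test. Cell classes were gated on raw counts of CD14, CSF3R, CD3E, the WC1 family, MS4A1 and NCR1.

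Whole blood of 4 lactating Holstein cows, 2 years of age, was pooled and then divided into a part with no LPS and further parts that were kept with LPS at 2 µg/ml over 2, 4 or 8 h. PBMCs were isolated from each of these, and 1 library for scRNA-seq and 1 for scATAC-seq were made per treatment. Where a sentence gives values for the 4 scRNA-seq libraries, they stand in the order of time (no LPS, then 2, 4 and 8 h). With 1 library per treatment there was no replicate check of any difference, the effect of a library cannot be told apart from that of its treatment, and animals within the pool cannot be separated. No p-value is given, and every interval below is an exact 95% interval that covers counting error only. No incubation time of the part without LPS is given in the sources used here, so LPS and time outside the animal cannot be told apart either. The CCL20 identifier was not among the genes listed for the 4 scATAC-seq libraries, so accessibility at CCL20 could not be analysed here.

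CCL20 encodes the ligand of CCR6, a receptor carried by type 17 T cells, many γδ T cells, B cells and immature dendritic cells, which are drawn along its gradient. It is known as an early response gene: LPS binds CD14 and TLR4 with LY96 on monocytes, the MyD88 pathway frees NF-κB from its inhibitors, and NF-κB drives transcription of cytokine and chemokine genes whose mRNAs are often short-lived. Type 17 T cells and epithelial cells are other known sources. In cattle, WC1 marks a large class of circulating γδ T cells.

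The libraries held 8490, 10429, 7977 and 3860 cell barcodes, and limits on genes (200 to 3000), UMIs (200 or more) and mitochondrial share (below 20%) left 7821, 9865, 7387 and 3411 cells. UMIs are molecular tags that count captured mRNA molecules. The cells kept held between 16657841 and 47875879 UMIs per library, and the 8 h library was the smallest. Pairs of libraries shared between 8 and 24 barcode sequences, at most 0.363% of the smaller library. Levels are given as CPM, the UMIs of a gene per 1000000 UMIs of the cells summed.

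Summed over all cells, CCL20 was high at 2 h and near its level without LPS at 4 h and 8 h. It had 2035, 28295, 2159 and 929 UMIs. These correspond to 52.9 CPM (50.6 to 55.2), 591 CPM (584 to 598), 53.8 CPM (51.5 to 56.1) and 55.8 CPM (52.2 to 59.5). The 2 h library stood apart from the other libraries, whose intervals overlapped. Against no LPS, the level was 11.2-fold higher at 2 h (10.7 to 11.7). The ratio was 1.02 at 4 h (0.957 to 1.08). After 8 h it was 1.06 (0.975 to 1.14). These sums rest on few cells, since 3, 27, 6 and 3 cells held 50% of the CCL20 UMIs. The share of cells with a CCL20 UMI was 1.34% (1.10 to 1.62), 7.34% (6.83 to 7.87), 1.72% (1.44 to 2.04) and 4.51% (3.84 to 5.27), so by this measure the 8 h library lay above no LPS. With cells weighted equally the log2 ratio at 8 h was 1.04, and without the 1% of cells richest in CCL20 it was 3.40, in place of 0.08. The value of 3.40 rests on only 26 UMIs left without LPS and 119 at 8 h. This step took out 79 of the 105 cells with a CCL20 UMI without LPS, but 35 of 154 at 8 h, so it was uneven.

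Of 12150 genes with at least 20 UMIs over the 2 libraries, 0.938% were at least 2-fold higher and 2.46% at least 2-fold lower at 2 h than without LPS. Those ratios have 1 CPM added to both libraries, and on this scale CCL20 had the largest log2 ratio, 3.46. The next genes were IL22, a type 17 cytokine, at 3.19, the activation marker CD69 at 2.94, TNFAIP6 at 2.92, the interferon-induced ISG15 at 2.88 and the granulocyte growth factor CSF3 at 2.63. From 2 h to 4 h the log2 ratio of CCL20 was -3.43, the lowest of 12077 genes.

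The 4 h level depended on the upper limit of genes per cell. Barcodes with more than 3000 genes held 29.8%, 39.0%, 71.2% and 55.7% of the CCL20 UMIs in the order of time, against 33.6%, 24.8%, 28.8% and 46.0% of all UMIs. With these barcodes included, the levels were 49.95, 729, 133 and 67.9 CPM. The fold over no LPS was then 14.6 at 2 h. It was 2.67 at 4 h (2.56 to 2.79). After 8 h it was 1.36 (1.28 to 1.44). The 2 h library stayed highest, while the 4 h library was no longer level with no LPS. What kind of cells these barcodes held was not tested.

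**Figure D1:**
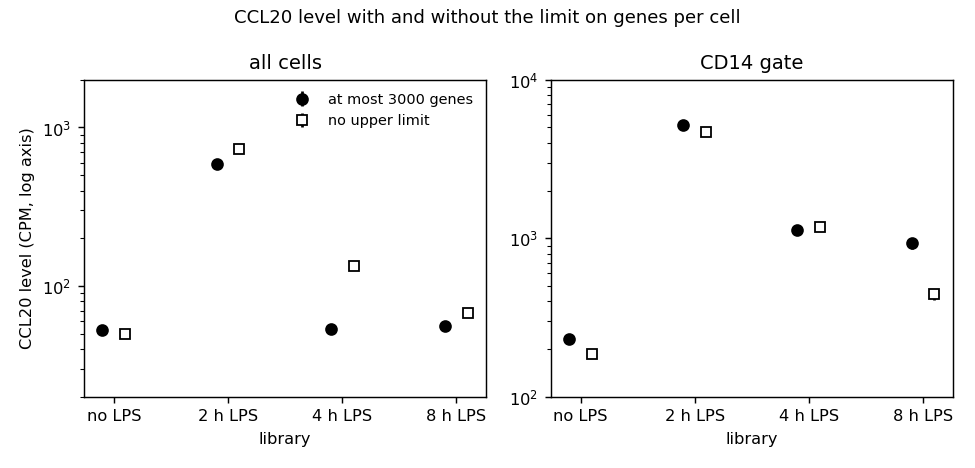
CCL20 level in CPM (log axis) in each of the 4 libraries, over all cells (left) and in the CD14 gate (right), with cells of at most 3000 genes (filled circles) and without the upper limit (open squares). Error bars are exact 95% Poisson intervals, mostly smaller than the symbols. Over all cells at 4 h the level was 53.8 CPM with the limit and 133 CPM without it.

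Cells were assigned to gates by raw UMIs of 6 markers. The CD14 and CSF3R gates required at least 2 UMIs of that gene, the CD3E, WC1, MS4A1 and NCR1 gates at least 1, and each gate required 0 UMIs of the markers of the others, except that WC1 cells could carry CD3E. The CD14 gate held 706, 308, 117 and 66 cells in the order of time, or 9.03%, 3.12%, 1.58% and 1.93% of the cells kept. The CSF3R gate held 25, 54, 47 and 11 cells, the CD3E gate 3196, 4644, 3636 and 1425, the WC1 gate 295, 290, 219 and 125, the MS4A1 gate 1684, 2370, 1875 and 655, and the NCR1 gate 58, 95, 90 and 37. CD14 itself was lower over all cells at 2 h, with a log2 ratio of -1.79 and levels of 501, 145, 82.6 and 111 CPM, so the gate did not select the same share of cells in each library. Fewer cells of a class and less CD14 mRNA per cell cannot be told apart here.

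The CD14 gate carried monocyte markers. At 2 h VCAN, a matrix proteoglycan of classical monocytes, was found in 75.6% of its cells, CD68 in 72.7%, CTSS in 82.1%, LYZ in 70.1%, TLR4 in 54.5% and CSF1R in 41.6%. Of the 4 dendritic cell markers, FLT3 had 14 UMIs and CLEC9A and CD1E none, but BATF3, a transcription factor, was found in 94.2% of the cells (1303 CPM). CD3D had 2 UMIs and CD79A had 3 UMIs in its 3569199 UMIs. The CSF3R gate carried CXCR1 in 55.6% of cells at 2 h, no CSF1R or LYZ UMI and 1 VCAN UMI. Of the same monocyte list, CD68 was found in 25.9% of its cells (274 CPM), TLR4 in 37.0% (264 CPM, against 96.4 CPM in the CD14 gate) and CTSS in 22.2%, and BATF3 was found in 88.9%. CXCR1 is a receptor of granulocytes, which PBMC preparations are meant to leave out. Its cells were shallow, with a median of 1516.5 UMIs at 2 h against 12607.5 in the CD14 gate. Of the lymphocyte gates at 2 h, CD3D was found in 37.6% of CD3E gate cells and 43.8% of WC1 gate cells, the B cell gene CD79B in 71.9% of MS4A1 gate cells, and the cytotoxic genes NKG7 and PRF1 in 70.5% and 80.0% of NCR1 gate cells.

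Among cells of at most 3000 genes, CCL20 was concentrated in the CD14 gate. CD14 gate cells held 76.2%, 65.7%, 59.1% and 63.5% of the CCL20 UMIs of their library. These UMIs numbered 1550, 18599, 1276 and 590. Without the upper limit on genes the gate held 59.0%, 47.9%, 25.7% and 28.3%, so most CCL20 UMIs then lay outside it at each LPS time. With the limit, the gate levels were 230 CPM (219 to 242), 5211 CPM (5136 to 5286), 1124 CPM (1063 to 1188) and 927 CPM (854 to 1005). The order was thus 2 h, 4 h, 8 h and no LPS, and none of these intervals overlapped.

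Against no LPS, the CD14 gate level was 22.6-fold higher at 2 h (21.5 to 23.8), a log2 ratio of 4.50. This ratio became 5.10 without the single richest cell of each library and 7.34 without the richest 1% of cells. The latter rests on 185 CCL20 UMIs left without LPS and 15859 at 2 h. The gate level was 4.88-fold higher at 4 h (4.53 to 5.26). After 8 h it was 4.02-fold higher (3.65 to 4.43). Unlike the sum over all cells, the gate thus stayed above no LPS at 4 h and 8 h, when it made up a smaller share of the cells. The median gene of this gate had log2 ratios of -0.56, -0.20 and -0.05 at the LPS times, so TMM scaling of the gate sums gave CCL20 a log2 ratio of 5.03 at 2 h in place of 4.50. At 2 h, 4.2% of 7767 genes were at least 2-fold higher in the gate and 21.2% at least 2-fold lower, and SLAMF1 (log2 ratio 6.12) and CD69 (5.92), both activation markers of leukocytes, exceeded CCL20 (4.49). IL23A (4.13) and CSF2 (4.11) came next. Without the limit on genes the gate levels were 186, 4655, 1171 and 443 CPM, with folds over no LPS of 25.01, 6.29 and 2.38.

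Since CD14 was itself lower after LPS, cells were also gated on at least 10 UMIs over the 9 monocyte markers, whatever their CD14, and none of the lymphocyte markers. This choice was made after the data were seen. It took 556, 242, 76 and 45 cells and gave CCL20 levels of 232, 5192, 995 and 898 CPM. The order of the libraries and the 2 h log2 ratio, 4.48, were close to those of the CD14 gate. Only 18, 6, 10 and 4 of these cells had no CD14 UMI. Most of them thus carried CD14, so this gate cannot show how cells that had lost it behaved.

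**Figure D2:**
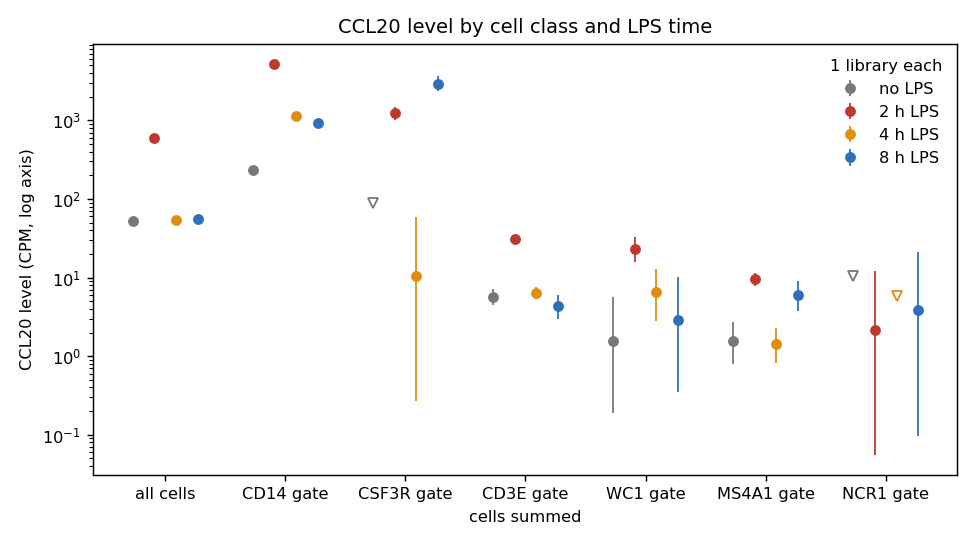
CCL20 level in CPM (log axis) over all cells and in each of the 6 marker gates, for the library without LPS (grey), 2 h (red), 4 h (orange) and 8 h LPS (blue), 1 library each. Bars are exact 95% Poisson intervals, and open triangles mark gates with 0 CCL20 UMIs, drawn at the level that 3 counts would give. The CD14 gate at 2 h, at 5211 CPM, was the highest point.

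CCL20 was not spread evenly over CD14 gate cells. A CCL20 UMI was found in 39 of 706 cells (5.52%), 110 of 308 (35.7%), 20 of 117 (17.1%) and 12 of 66 (18.2%). A threshold of 5 UMIs, chosen after the data were seen, was passed by 18 cells without LPS (2.55%, exact interval 1.52 to 4.00) and by 91 at 2 h (29.5%, 24.5 to 35.0). It was passed by 16 cells at 4 h (13.7%, 8.02 to 21.3), and the 8 h library had 7 such cells (10.6%, 4.37 to 20.6). The share at 2 h lay above those of the other libraries, and those of 4 h and 8 h overlapped. Cells above the threshold held 97.4%, 99.8%, 99.1% and 98.8% of the gate's CCL20 UMIs.

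Both the share of such cells and their content were higher at 2 h. The median CCL20 count of these cells was 24.5, 113, 51 and 47 UMIs, and the mean was 83.9, 204, 79.1 and 83.3. The means without LPS rested on few cells, since 1 cell held 565 UMIs and the next 377. At a threshold of 100 UMIs, 0.283%, 16.6%, 5.13% and 3.03% of the gate passed. With each cell thinned to 1000 UMIs and shallower cells left out, 3.58%, 28.7%, 14.2% and 10.5% of CD14 gate cells had a CCL20 UMI.

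**Figure D3:**
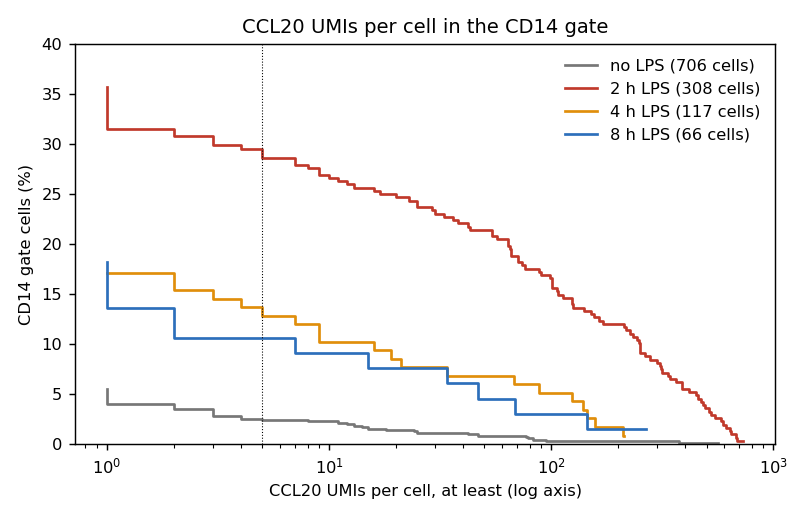
Percent of CD14 gate cells (vertical axis) with at least the number of CCL20 UMIs on the horizontal axis (log), 1 line per library, with the dotted line at 5 UMIs. The 2 h line starts at 35.7% and reaches 732 UMIs, and at 5 UMIs it stands at 29.5% against 2.55% without LPS.

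Most of the other early genes examined were found in more of the same cells. These are 3′-end UMI counts, which do not scale with transcript length. At 2 h at least 5 UMIs of IL1B, the pyrogenic cytokine, were found in 98.1% of CD14 gate cells, of the neutrophil chemokine CXCL8 in 96.4%, of CCL3 in 89.9%, of PTGS2, the inducible cyclooxygenase, in 73.7%, of CSF3 in 66.2%, of the monocyte chemokine CCL2 in 59.1% and of IL6 in 45.8%. The share for CCL20 was 29.5%, and TNFAIP6, at 17.5%, and TNF, at 9.74%, were below it. Without LPS, IL1B and CXCL8 already passed this threshold in 90.2% and 90.1% of the cells, while CCL20 did in 2.55%.

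**Figure D4:**
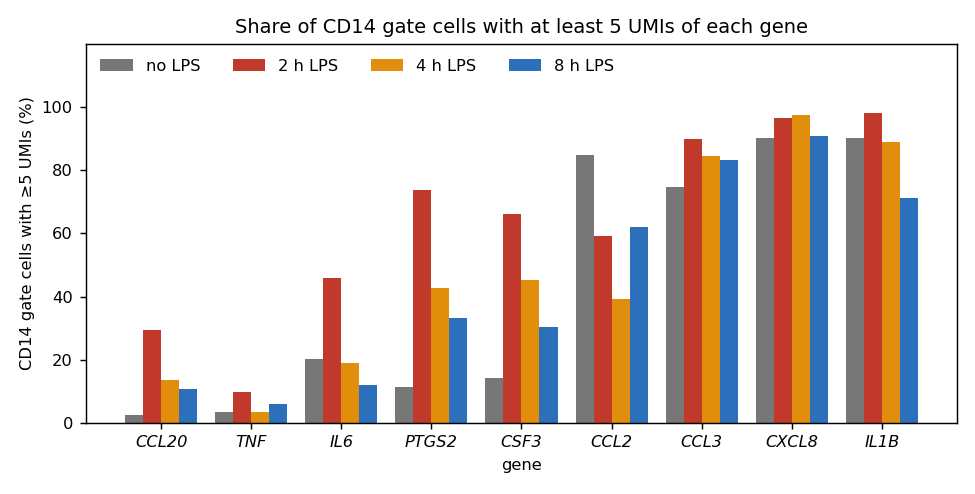
Percent of CD14 gate cells with at least 5 UMIs of CCL20 and of 8 other early genes (bars from 0), by library (grey no LPS, red 2 h, orange 4 h, blue 8 h). CCL20 stood at 2.55%, 29.5%, 13.7% and 10.6%, while IL1B lay between 71.2% and 98.1% and CXCL8 between 90.1% and 97.4%.

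Over whole libraries, the 1% of cells richest in CCL20 held 98.7%, 92.4%, 97.5% and 87.2% of its UMIs. Among 4505 genes with at least 1000 UMIs at 2 h, 10 were more concentrated by this measure, and the median gene had 12.3% of its UMIs in its richest 1% of cells. The genes above CCL20 included the acute-phase gene SAA2, the antimicrobial peptide gene TAP, the chemokine CCL8 and JCHAIN of plasma cells. Leaving out the single richest cell of each library gave log2 ratios over all cells of 3.91 at 2 h and 0.34 at 4 h.

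CD14 gate cells at 2 h with at least 3 CCL20 UMIs (95 cells) were compared with those with none (198 cells) over 1369 genes with at least 200 UMIs in both together. The groups had like depth, with a median of 12706 and 12176.5 UMIs. The 10 genes with the largest ratio held 3 β-defensins, DEFB13 (log2 ratio 2.57), DEFB7 (1.46) and DEFB4A (1.22), which are antimicrobial peptides. The others were the metallothionein MT1A (1.51), TNF (1.45), CYP3A4 (1.39), haptoglobin HP (1.34), RND1 (1.22), PAK1IP1 (1.11) and FGF18 (1.05). DEFB13 was found in 31.6% of the cells with CCL20 and 9.60% of those without, DEFB4A in 65.3% and 39.4%, and HP in 41.1% and 19.2%. MT1A was found in 2.11% and 4.04%, so its ratio came from very few cells. The bovine β-defensins are a multigene family with similar copies, so their single values are uncertain.

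These 10 genes were chosen at 2 h, and the other libraries give the same comparison with fewer CCL20 cells, 25 without LPS, 18 at 4 h and 7 at 8 h. DEFB13 had log2 ratios of 1.97, 2.39 and 4.94 there, DEFB7 of 0.96, 1.502 and 0.72, DEFB4A of 2.48, 0.45 and 2.51, and HP of 3.003, 0.19 and 1.47. CYP3A4 had 1.61, 0.94 and 0.67. These 5 genes had positive ratios in every library, though HP was near equal at 4 h. TNF (-0.11, -0.28 and 1.18), FGF18 (1.53, 0.10 and -0.29) and MT1A (2.28, 0.61 and -2.79) did not. RND1 (0.00, 1.00 and 2.27) and PAK1IP1 (0.25, 0.67 and 0.03) were never negative but were also near equal in some. DEFB13 rested on 8 UMIs in the CCL20 cells of the 4 h library. Unlike at 2 h, the CCL20 cells were also deeper in these libraries, with a median of 13088 against 9841 UMIs without LPS, 13308.5 against 6429 at 4 h and 16213 against 5572 at 8 h. The part of depth in these ratios was not tested.

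The receptor genes of LPS did not set these cells apart at 2 h. CD14 had a log2 ratio of -0.21 and TLR4 of -0.16 between cells with and without CCL20. CXCL8 (0.08), IL1B (0.37), CSF3 (0.33), PTGS2 (0.38) and IL6 (0.45) differed by less than the genes above at 2 h, where those genes were picked, as did VCAN (0.55) and the calcium-binding S100A8 (0.56) and S100A9 (0.51). In the libraries without LPS, at 4 h and at 8 h, however, IL6 had log2 ratios of 1.88, 2.08 and 1.30 and CSF3 of 1.97, 1.41 and 1.24, as large as those of some of the 5 genes. S100A9 had 1.61, 0.15 and 1.78 and PTGS2 1.17, 1.43 and -0.25.

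The CSF3R gate had few cells and few CCL20 UMIs, 0, 126, 1 and 84 in the 4 libraries. At 2 h, 2 of 54 cells held 122 of them, and at 8 h 2 of 11 cells held all 84. The levels were 1232 CPM (1026 to 1467) at 2 h and 2938 CPM (2344 to 3638) at 8 h. Against the 88.1 CPM that 3 counts would give without LPS they were 14.0-fold and 33.3-fold higher. For the count of 0 in the 34047 UMIs of this gate without LPS, the exact upper limit is 108 CPM. These folds are thus not lower limits. The 8 h value exceeds that of the CD14 gate, but it rests on 2 cells. Without the upper limit on genes, 1 more cell entered the gate at 8 h and the level was 1458 CPM (1163 to 1805). This is 16.5-fold above the level of 3 counts without LPS.

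The CD3E gate, T cells outside the WC1 class, had low CCL20 levels, highest at 2 h. It held 80, 626, 118 and 33 UMIs, or 5.73 CPM (4.54 to 7.13), 30.7 CPM (28.3 to 33.2), 6.41 CPM (5.30 to 7.67) and 4.33 CPM (2.98 to 6.09). The 2 h level was 5.35-fold above no LPS (4.24 to 6.84), while the 4 h (1.12-fold, 0.835 to 1.505) and 8 h (0.757-fold, 0.488 to 1.15) levels were not separated from it. In this gate 0.585% of 10601 genes were at least 2-fold higher at 2 h and 0.349% at least 2-fold lower. Of 275 cells with a CCL20 UMI at 2 h, 232 had 1 UMI.

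A small number of CD3E gate cells held much of this signal. Cells with at least 5 CCL20 UMIs numbered 4, 16, 6 and 0, and they held 45.0%, 52.4% and 37.3% of the gate's CCL20 UMIs in the first 3 libraries. The richest, at 2 h, had 106 UMIs. Of the 16 cells at 2 h, CD2 was found in 62.5% and CD5 in 75.0%, both T cell surface proteins, and CD79A and NKG7 in none. Over the monocyte markers with S100A8 and S100A9, these cells had a median of 1 UMI in each of the 3 libraries, against 0 in the gate's cells without CCL20.

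The other lymphocyte gates held few CCL20 UMIs. The WC1 gate had 2, 31, 8 and 2 UMIs in the order of time, the MS4A1 gate of B cells 12, 116, 16 and 23, and the NCR1 gate of NK cells 0, 1, 0 and 1. At 2 h the levels were 23.0 CPM in WC1 (15.6 to 32.6), 9.54 CPM in MS4A1 (7.88 to 11.4) and 2.17 CPM in NCR1 cells (0.0549 to 12.1). Those of CD3E and WC1 cells overlapped, as did those of MS4A1 and NCR1 cells. Of 115 MS4A1 gate cells with a CCL20 UMI at 2 h, 114 had a single one, and none had 5 or more, for which the exact upper limit is 0.156% of the 2370 cells. The other MS4A1 cell had 2 UMIs.

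Shares of cells with a CCL20 UMI at 2 h were 5.92% in the CD3E gate (5.26 to 6.64), 7.93% in WC1 (5.09 to 11.7), 4.85% in MS4A1 (4.02 to 5.80) and 1.05% in NCR1 (0.0266 to 5.73), at median depths of 4103, 3963.5, 4244.5 and 4617 UMIs. All these intervals overlapped, and no order is read from them. Relative to the CD14 gate, the 2 h level of CCL20 was 0.588% in CD3E cells (0.281% without the cells of at least 5 UMIs), 0.441% in WC1, 0.183% in MS4A1 and 0.0416% in NCR1 cells. IL1B, a monocyte product, stood at 0.314%, 0.485%, 0.433% and 0.270% in the same gates, and S100A8 at 0.194%, 0.181%, 0.237% and 0.177%. The median of the 9 monocyte markers was 0.922%, 0.706%, 1.05% and 0%. Single markers ranged widely, from 0% in each gate up to 52.2%, 39.7%, 12.3% and 15.8%. The MS4A1 value of CCL20 lay below those of IL1B and S100A8, the CD3E value above both and the WC1 value between them. The NCR1 value rests on 1 UMI, whose interval is too wide to place it. No expression of CCL20 by these classes is read from them, and the part of free RNA was not tested. At least 5 UMIs over the monocyte markers with S100A8 and S100A9 were found in 0.348%, 0.252%, 0.558% and 3.23% of the CD3E gate cells without CCL20. At 8 h the CCL20 levels of the MS4A1, CD3E, NCR1 and WC1 gates (5.95, 4.33, 3.85 and 2.86 CPM) had overlapping intervals.

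Cells in no gate held 19.2%, 31.1%, 34.3% and 21.1% of CCL20. Without the upper limit on genes they held 36.2%, 50.1%, 71.9% and 63.6%. With the limit, most of the CCL20 in no gate at 2 h, 8324 UMIs, was in 123 cells with at least 2 CD14 UMIs and a lymphocyte marker. Of these, 49 (39.8%, 31.1 to 49.1) had at least 5 CCL20 UMIs. Their median depth was 13289 UMIs. What kind of cells they were was not tested. Cells without any CD14 UMI and outside all gates, 1784 in number, held 333 UMIs.

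Other chemokine ligands in the CD14 gate gave a mixed picture. Of 26 ligands listed, 12 had at least 20 UMIs, and at 2 h 5 were at least 2-fold higher and 2 at least 2-fold lower, against 4.2% and 21.2% of all genes. The list's median log2 ratio was 0.94, beside -0.56 over all genes. CCL4 (1.96), CCL3 (1.80), GRO1 (1.54), CXCL8 (1.48) and CXCL3 (1.28) were higher, and CCL2 (-1.73) and CCL22 (-1.48) lower. CXCL5 (-0.18) and CCL8 (-0.28) were within 2-fold. GRO1, CXCL2, CXCL3 and CXCL5 are related genes that can share reads, so their split is uncertain.

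Over all cells, the same list held 1 higher and 2 lower of 18 at 2 h, against 0.938% and 2.46% of all genes. CXCL10, an interferon-induced ligand of T cells, was higher (log2 ratio 1.52), with its highest level at 4 h, 15.2, 45.5, 151 and 61.2 CPM in the order of time. CCL2 (-2.59) and CXCL5 (-1.20) were lower, and CCL8 stood at -0.84. The log2 ratio of CCL2 was -4.33 at 4 h and its level 7539, 1254, 375 and 1139 CPM. CCL2 had the lowest ratio of the list at 2 h. CCL20 is not on the list and was chosen for its high ratio at that time. In the CD14 gate at 4 h, 3 of 12 were higher and 2 lower against 5.64% and 12.9% of genes, and at 8 h 0 were higher and 3 lower against 5.44% and 8.43%.

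**Figure D5:**
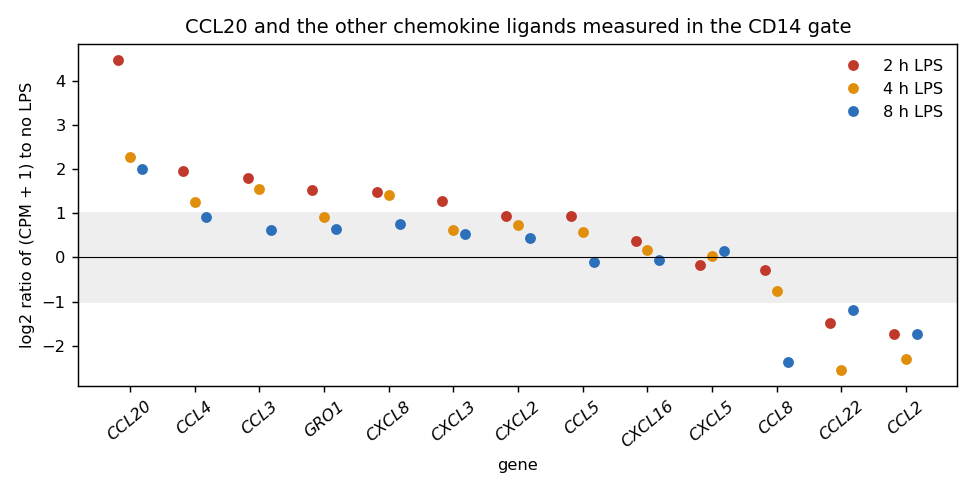
Log2 ratio of (CPM + 1) to no LPS in the CD14 gate for CCL20 and the 12 other chemokine ligands with at least 20 UMIs at 2 h, at 2 h (red), 4 h (orange) and 8 h (blue), with the shaded band marking less than 2-fold. CCL20 stands at 4.49, 2.28 and 2.00, and CCL2 at -1.73, -2.30 and -1.73.

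CCR6, the receptor of CCL20, was low in every gate. Over all cells it had 2.88, 2.21, 2.61 and 1.80 CPM in the order of time, from 111, 106, 105 and 30 UMIs. In the CD14 gate it had 6.69 CPM without LPS and 0.841 CPM at 2 h, from 45 and 3 UMIs, and in the CD3E gate 1.86, 2.45, 3.04 and 1.31 CPM. Of the list of CCR6 and type 17 genes, 4 of 14 were at least 2-fold higher over all cells at 2 h and 1 lower, where 0.938% and 2.46% of all genes were. The higher ones were IL22 (3.19), IL17F (2.01) and IL17A (1.49), the cytokines of type 17 cells, and the transcription factor BATF (1.68). The IL22 value rests on UMIs in 9 cells without LPS and 26 at 2 h. In the CD3E gate 2 of 13 were higher, IL17A (1.15) and BATF (1.47), and none lower, against 0.585% and 0.349% of all genes.

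The LPS receptor list held few differences at 2 h. Of 14 measured genes, 1 was at least 2-fold higher over all cells at 2 h, IRAK3 (1.03), an inhibitor of the pathway, and 1 lower, CD14 (-1.79), while 0.938% and 2.46% of all genes were. IRAK2 stood at 0.60 and TLR4 at -0.45. Within the CD14 gate TLR4 was at 86.4 CPM without LPS and 96.4 CPM at 2 h.

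The NF-κB list had 6 of 18 genes at least 2-fold higher and 0 lower over all cells at 2 h, against 0.938% and 2.46% of all genes. Its median log2 ratio was 0.86, and that of all genes was -0.033. The feedback inhibitor TNFAIP3 (1.504), NFKBIZ (1.44), the ubiquitin ligase BIRC3 (1.30) and the subunit NFKB2 (1.27) led it. In the CD14 gate 10 of 18 were higher and 1 lower at 2 h (4.2% and 21.2% of all genes), and in the CD3E gate 6 and 0 (0.585% and 0.349%). TNFAIP3 had 290, 1272, 957 and 619 CPM in the CD14 gate. At 4 h 9 of 18 genes of this list were still at least 2-fold higher in the CD14 gate, and at 8 h 3 were, against 5.64% and 5.44% of all genes.

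The early inflammatory list had 10 of 21 genes higher and 1 lower over all cells at 2 h, and 16 of 20 higher and 0 lower in the CD14 gate. Of all genes, 0.938% were higher and 2.46% lower over all cells, and 4.2% and 21.2% in the gate. TNFAIP6, a hyaluronan-binding protein, had a log2 ratio of 2.92 over all cells and 3.58 in the gate, CSF3 2.63 and 3.70, PTGS2 2.52 and 3.68, and the alarmin IL1A 2.00 and 2.41. Like CCL20, these 4 genes were highest at 2 h: in the CD14 gate CSF3 had 365, 4771, 2361 and 1550 CPM, and PTGS2 189, 2434, 886 and 552 CPM. At 4 h 13 of 18 and at 8 h 7 of 18 members were at least 2-fold higher in the gate, against 5.64% and 5.44% of all genes.

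Of the genes of mRNA decay, 1 of 9 was at least 2-fold higher at 2 h over all cells and 0 lower, against 0.938% and 2.46% of all genes. It was ZC3H12A, an endonuclease that cuts cytokine mRNAs, with a log2 ratio of 1.63 and levels of 18.4, 58.9, 34.9 and 24.7 CPM. ZFP36L1 (0.67), ZC3H12C (-0.44) and RC3H1 (0.18) were within 2-fold. In the CD14 gate 1 of 9 was higher and 3 were lower at 2 h, against 4.2% and 21.2% of all genes. The higher one was ZC3H12A (2.31), and the lower ones were ZFP36L2 (-2.21), ZFP36L1 (-1.45) and ELAVL1 (-1.16).

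The genes whose pattern was most like that of CCL20 were sought over 22 sums of a gate in a library, with at least 50000 UMIs each, among 10007 genes. These points share the depth and free RNA of their library and the class of their gate, so a correlation mainly follows the class, and it is a description. By Pearson's r of log2(CPM + 1), the highest were ACTR3 (0.943), a subunit of the actin-nucleating Arp2/3 complex, complement C3 (0.941), UPB1 (0.931), VSTM1 (0.914), RUNX1 (0.910), MAOA (0.910), F5 (0.908), ENSBTAG00000026080 (0.907), the defensin DEFB1 (0.906) and HP (0.905). ACTR3 had 890, 840, 918 and 817 CPM in the CD14 gate in the order of time and 448 to 493 CPM in the CD3E gate. HP had 142, 142, 178 and 240 CPM in the CD14 gate. None of these genes had the 2 h maximum of CCL20 to a like extent, so the likeness by Pearson's r was one of class more than of time. This reading is limited to that measure. By Spearman's rho the highest genes were EDEM1 (0.887), CCNL1 (0.878), ACTR3 (0.878), BAZ1A (0.876), WTAP (0.873), NFKBIA (0.863), RUBCNL (0.852), PPP1R15A (0.845), F3 (0.844) and TNF (0.840). Only ACTR3 was on both lists.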

How the data were processed

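For 4 scRNA-seq libraries the deposited values are raw UMI counts of each gene in each cell barcode, made with Cell Ranger on ARS-UCD1.2 per the labels, and for 4 scATAC-seq libraries they are counts of each gene in each barcode, which were not used for CCL20. Cells were kept by the limits of the study (200 to 3000 genes, at least 200 UMIs, under 20% mitochondrial UMIs over 13 genes), with its UMI limit read as a minimum. These left more cells in every library than the study states, and the further steps behind its number are not given in the sources used here. No doublet caller was run, and gates left out cells with markers of another class. UMIs were summed per library and gate and divided by their total (CPM). Levels have exact Poisson, ratios exact conditional binomial and shares Clopper-Pearson 95% intervals. PCR and capture add error that these do not cover, and UMIs of CCL20 lie in few cells, so the intervals understate the spread. A count of 0 was given the level of 3 counts. Ratios of other genes have 1 CPM added and need at least 20 UMIs. Numbers of genes past 2-fold are counts without a test.

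CCL20 and the gene lists were chosen with earlier results of these data known. Genes named are CCL20, CCR6, the gate markers, the cell type markers, the 4 members of each list with the largest absolute log2 ratio at 2 h over all cells, the 10 genes most like CCL20 and the 10 with the largest ratio between CCL20 cells and others. Further genes (the top ranks at 2 h, the early genes compared per cell and the list members quoted within gates) were chosen after their values were seen. So were the genes named by Spearman's rho. Some markers are not reported here. Values were computed with Python 3.11.15, numpy 2.4.6 and scipy 1.17.1. Scaling by edgeR 4.0.16 (TMM) and DESeq2 1.42.0 size factors was an alternative, with no test from either. The ratio and likeness steps were tested on simulated data. Alternatives were other limits on cells, gates, scaling, pseudocount, weighting and thinning. No sequence or coordinate was used.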

Additional observations from a re-analysis of the deposited data

Results flagged for a closer look

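From 4 h to 8 h the gates differed in opposite directions, with counting intervals that leave out 0. The log2 ratio of CCL20 was -0.28 in the CD14 gate (-0.42 to -0.14), 2.08 in the MS4A1 gate (1.09 to 3.09) and 8.12 in the CSF3R gate (5.60 to 13.4). The MS4A1 ratio rests on 16 and 23 UMIs, 9 of them in 1 cell at 8 h, and the CSF3R ratio on 1 and 84 UMIs, the latter in 2 cells. With 1 library per time the difference between gates was not tested.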

How the results depend on the processing

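In 5 groups of cells (all cells and the CD14, CD3E, WC1 and MS4A1 gates) the log2 ratio of CCL20 at 2 h was positive under every alternative run, 37 values in all with those of the report. The values at 4 h and 8 h depended on the cells counted, and the cause was not tested. No paired analysis was possible because each treatment had 1 library, and leaving out a replicate was not possible for the same reason. Alternatives for scATAC-seq were not run. The CSF3R and NCR1 gates gave no ratio at 2 h, having 0 UMIs without LPS, and neither did the lymphocyte gates once the richest 1% of cells was left out. The settings for the CD14 gate at 4 h and 8 h, its scaling by TMM and size factors, its regating on 9 markers and the removal of the richest cell were chosen after seeing the data.

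Without an upper limit on genes, the log2 ratios over all cells became 3.87, 1.42 and 0.44 at the LPS times, against 3.48, 0.02 and 0.08. They became 4.64, 2.65 and 1.25 in the CD14 gate, against 4.50, 2.29 and 2.01, and 1.85 at 2 h in the CD3E gate, against 2.42. The shares of all cells with a CCL20 UMI became 1.68% without LPS, 8.38% at 2 h and 2.35% at 4 h. All deposited barcodes gave 3.87, 1.42 and 0.44, and weighting cells equally gave 3.804, 0.87 and 1.04. Leaving out the 1% of cells richest in CCL20 gave 6.06, 0.96 and 3.40 over all cells and 7.34, 4.78 and 4.23 in the CD14 gate. These ratios rest on 26 UMIs left without LPS over all cells and 185 in the gate. Leaving out the single richest cell gave 3.91 (2 h) and 0.34 (4 h) for all cells, and 5.10, 2.69 and 1.84 in the CD14 gate.

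In the CD14 gate TMM factors gave 5.03 at 2 h and 2.48 at 4 h, and DESeq2 size factors gave 5.08 and 2.49. Over all cells at 8 h the size factors gave -0.037 and TMM -0.035, so this ratio near 0 changed sign. With at least 1 CD14 UMI the gate had 2.18 at 4 h and 1.65 at 8 h. With at most 1 UMI of other markers it had 2.00 and 1.83, and the CD3E gate had 2.08 at 2 h. Gating on the 9 monocyte markers gave 2.10 at 4 h. Cells thinned to 1000 UMIs had a CCL20 UMI in 0.643%, 3.17%, 0.774% and 2.14% of all cells in the order of time, and in 3.58% and 28.7% of CD14 gate cells without LPS and at 2 h. By Spearman's rho, 1 of the 10 genes most like CCL20 was shared. For the ratios, the shares in all cells and in the CD14 gate, and the likeness, 39 further values stayed within the interval of the reported value or equal to it, and 45 did not. The number of genes past 2-fold without a filter on low counts was equal to that with it, since 1 CPM was added.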
